A study of Rattus norvegicus with 86 samples.

Results

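The 7 genes followed here are members of the circadian clock: Arntl (ENSRNOG00000014448, also called Bmal1), Clock (ENSRNOG00000002175), Per1 (ENSRNOG00000007387), Per2 (ENSRNOG00000020254), Nr1d1 (ENSRNOG00000009329), Nr1d2 (ENSRNOG00000046912) and Dbp (ENSRNOG00000021027). They were chosen by Ensembl identifier, without use of their values, and all 7 were found among the 17180 genes of the deposited table. RNA-Seq was carried out on the nucleus accumbens core, a region of the ventral striatum, of HS rats. The Heterogeneous Stock (HS) is bred outbred from a cross of inbred founder strains, and the study used these values to map the genetic control of gene expression. No rat had received a drug or taken part in a behavioral experiment, so no treatment or genotype group exists, and the libraries are grouped by sex and by a rat batch number. Of 86 samples, 11 were labelled as removed and 75 had values. The comparisons rest on 74 of these: 2 females and 10 males of rat batch 2, 13 females and 7 males of rat batch 3, 14 females and 12 males of rat batch 4, and 8 females and 8 males of rat batch 6. The 1 library of rat batch 5, a female, was left out of the fits, and its value of each member lay inside the range of the other 74 rats (12.13 in the mean and 11.66 in this female for Dbp, for example). The labels give neither the time of day at which brains were collected nor what a rat batch stands for. Each library is bulk tissue of 1 rat, so that fewer cells of a type and less RNA per cell cannot be told apart.

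In the mammalian clock, the proteins of Arntl and Clock pair up and switch on genes that carry E-boxes in their control regions. Among these genes are Per1 and Per2, whose proteins return to the nucleus and hold the pair back, and Nr1d1 and Nr1d2, which encode the REV-ERB nuclear receptors that repress Arntl. Dbp is an output gene of the same E-box control, and its protein in turn acts on D-boxes, including those of the Per genes. In a tissue followed around the clock, Arntl therefore tends to peak when Nr1d1 and Dbp are low, while Clock varies less over the day. Each rat gives a single time point, so in this data set the clock can be read only through how the members differ between rats. The questions asked were whether Arntl and Clock (the positive limb) ran opposite to the repressors and Dbp between rats of the same rat batch and sex, and whether the members shifted between rat batches.

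All 7 members had a window in the RefSeq promoter table of the GRCr8 build, which runs from 250 bases before to 50 bases after a transcript's start and gave 9 windows for the members. The letters of the E-box (CACGTG), the D-box (TTANGTAA), the single ROR and REV-ERB site (TNGGTCA) and the cAMP response element (TGACGTCA) were searched on both strands. Only 3 of the 9 windows held a match, each of a different motif, and these stretches are shown because they are the elements through which members of the loop are known to act on each other. Capitals mark the match, and each sequence runs 5′ to 3′ along the gene.
Arntl, chr1:176766298-176766327, plus strand: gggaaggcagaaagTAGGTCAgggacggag
Per2, chr9:99497167-99497196, minus strand: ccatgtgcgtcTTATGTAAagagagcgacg
Nr1d1, second start, chr10:84229628-84229657, minus strand: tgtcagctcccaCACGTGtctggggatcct
The REV-ERB site of Arntl lay 16 to 10 bases before its start. The D-box of Per2 ended 185 bases before its start, and the E-box of Nr1d1 began 191 bases before the second of its 2 starts. Over all 33469 windows of 27457 genes, 6.42% held the E-box, 2.24% the D-box, 11.1% the ROR and REV-ERB site and 1.83% the cAMP response element. The matches describe these windows only, and control regions farther from the starts were not searched. In the same reference Nr1d1 overlaps Thra, which lies on the opposite strand, and Per2 and Clock overlap long noncoding RNA genes on the opposite strand. Whether counting used the strand of the reads is not given in the sources used here, so reads of such neighbours cannot be told apart from those of the member.

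Deposited values were log2(scaled count + 1), and the read counts recovered from them summed to between 8455381 and 26145621 per library. The members were well covered: the lowest recovered count of any member in the 74 libraries was 295, for Arntl, and the highest was 6783, for Dbp. Counting error made up 1.04% (Dbp) to 13.9% (Arntl) of the variance left after rat batch and sex were removed, under a Poisson model. Male 6 of rat batch 2 and male 14 of rat batch 6 had the lowest totals (8455381 and 10372222). They also had the lowest median correlations with other libraries (0.934 and 0.949, against a median of 0.965 over libraries). Female 10 of rat batch 4 came next in both and close to the latter (10916058 and 0.9545). Dixon's ratio was checked for each member in males of rat batches 2 and 3 and in either sex of rat batch 6, and 0 of 28 checks found a value far from the others. Rat batch 4 and the females of rat batches 2 and 3 fell outside the group sizes used and were not checked.

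The members differed in how much they varied between rats. After rat batch and sex were removed, the residual SD was largest for Per2 at 0.29 (log2 scale), followed by Per1 at 0.26, Nr1d1 at 0.25, Dbp at 0.22, Nr1d2 at 0.18, Clock at 0.17 and Arntl at 0.14 (69 residual degrees of freedom). Because genes of different level have different noise, each SD was set beside those of the genes whose mean lay within 0.5 log2 units. Per1 varied more than 95.4% of 1248 such genes, Per2 more than 94.9% of 1946, Nr1d1 more than 92.4% of 1840 and Dbp more than 91.9% of 651. Nr1d2 (76.5% of 1296) and Clock (72.7% of 1728) lay nearer the middle, and Arntl was less variable than most (36.1% of 2454). Between the lowest and the highest rat, the residuals spanned 2.53-fold for Per2, 2.46-fold for Nr1d1, 2.28-fold for Per1 and 1.96-fold for Dbp, but 1.52-fold for Arntl. Per1, Per2, Nr1d1 and Dbp thus had the highest standing among genes of their level, Nr1d2 and Clock had a nearly equal, lower one, and Arntl had the lowest.

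Between the 4 rat batches, 4 of the 7 members changed: Clock (adjusted p = 5.77e-06, limma's moderated F test with Benjamini-Hochberg adjustment over all genes), Per2 (0.00262), Nr1d2 (0.0227) and Dbp (0.0329). Rat batch moved 53.5% of all genes in the same test, so a count of 4 of 7 is close to the background. Arntl (0.0643), Nr1d1 (0.156) and Per1 (0.371) did not pass. Arntl passed with voom on recovered counts (0.00301), with the rank-based transformation (0.0461) and with no sex covariate (0.0481), and Nr1d1 without rat batch 6 (0.0489). The call of Dbp was lost with voom (0.32), with quantile normalization (0.217), with the total count as a covariate (0.0608) and without the 5 libraries of lowest median correlation (0.0828). That of Per2 was lost without rat batch 4 (0.0549), and that of Nr1d2 without rat batch 2 (0.0738).

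Clock, which encodes the partner of Arntl, had the smallest p. Its values ran from 10.26 through a median of 10.58 to 10.93 in the 20 rats of rat batch 3. Rat batch 2 ran from 10.45 through 10.82 to 10.96, rat batch 4 from 10.44 through 10.83 to 11.30, and rat batch 6 from 10.64 through 10.91 to 11.12. The median of rat batch 3 was the lowest, although its range overlapped that of every other batch. In log2 units, Clock was higher than in rat batch 3 by 0.25 ± 0.05 (SE) in rat batch 4 (adjusted p = 4.16e-05) and by 0.32 ± 0.06 in rat batch 6 (3.28e-06), and was lower in rat batch 3 than in rat batch 2 (-0.24 ± 0.07, adjusted p = 0.0262, limma).

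The low values of rat batch 3 lay in 1 stretch of the table. Its columns fall into 3 runs, a new run starting where the sorted order of their names starts again, and what a run stands for is not given in the sources used here. All 12 libraries of rat batch 2 are in run 1, all of rat batches 4 and 6 in run 3, and those of rat batch 3 in runs 1, 2 and 3 (7, 12 and 1 libraries). Within rat batch 3, Clock ran from 10.26 through 10.45 to 10.65 in the 12 libraries of run 2, and from 10.63 through 10.77 to 10.93 in the 7 of run 1. The 1 library of run 3 was at 10.75. Run 2 was thus the low part of rat batch 3, and it holds no library of another batch. When run was tested beside rat batch and sex, a test chosen after seeing the data, Clock was the 1 member of 7 that passed (run 2 minus run 1, -0.31 ± 0.07; adjusted p = 0.0078, limma's moderated F test), where 6.8% of all genes did. In that fit the difference of Clock in rat batch 3 from rat batch 2 was -0.05 ± 0.08 (adjusted p = 0.987, limma). The libraries of run 2 also had the lower mean of Per2 (10.22, against 10.42 in run 1 of rat batch 3) and of Nr1d2 (11.09 against 11.26), and the higher mean of Dbp (12.34 against 12.15). For these 3 genes the test of run did not pass (adjusted p 0.27 for Per2, 0.125 for Nr1d2 and 0.37 for Dbp, limma), but with run in the fit their differences of rat batch 4 from rat batch 3 changed sign, to -0.20 ± 0.28, -0.19 ± 0.17 and 0.05 ± 0.22. That of Clock was 0.06 ± 0.16. Only 1 library of rat batch 3 shares a run with rat batch 4.

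Per2, the repressor with the widest spread, had a median of 10.29 in rat batch 3 (range 9.97 to 10.90) and of 10.62 in rat batch 4 (10.07 to 11.14). Its medians in rat batch 2 (10.57, range 10.08 to 11.05) and rat batch 6 (10.35, range 9.73 to 11.07) lay between these values. Per2 was higher in rat batch 4 than in rat batch 3 by 0.33 ± 0.08 (adjusted p = 0.00088, limma), and no other pair of batches passed for this gene. The difference turned to -0.20 with the column run as a covariate and to -0.10 with 20 expression components (the leading axes of variation over all genes), without passing in either. Nr1d2, which encodes the other REV-ERB receptor, moved the same way: its medians were 11.16 (rat batch 3, 10.86 to 11.50), 11.34 (rat batch 4, 10.92 to 11.60), 11.23 (rat batch 6, 10.87 to 11.51) and 11.35 (rat batch 2, 11.18 to 11.59). Its difference between rat batches 4 and 3 was 0.14 ± 0.05 (adjusted p = 0.0243, limma), but turned to -0.19 with the column run, -0.26 with 5 components (adjusted p = 0.0432, limma) and -0.12 with 20.

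Dbp and Nr1d1 moved in the opposite direction. Dbp had medians of 12.29 (rat batch 3, 11.96 to 12.51), 12.11 (rat batch 4, 11.60 to 12.39), 12.08 (rat batch 6, 11.67 to 12.47) and 12.11 (rat batch 2, 11.87 to 12.56). It was lower than in rat batch 3 by 0.18 in rat batch 4 (log2 difference -0.18 ± 0.06, adjusted p = 0.0164, limma) and by 0.21 in rat batch 6 (-0.21 ± 0.07, adjusted p = 0.0158). With the column run as a covariate these differences were 0.05 and 0.02, with 5 components 0.14 and 0.21, and with 20 components 0.04 and -0.05, none of which passed. For Nr1d1 the difference of rat batch 4 from rat batch 3 was -0.18 ± 0.07 (adjusted p = 0.041, limma), with medians of 10.58 and 10.69. This call was made in 9 of 17 alternatives, and the difference was negative in each of them (-0.12 to -0.70, the latter in SD units of the rank-based transformation). It was lost, among others, with voom (-0.12, adjusted p = 0.23), with quantile normalization (-0.17, adjusted p = 0.0619) and without male 14 of rat batch 4 (-0.16, adjusted p = 0.0654). Arntl passed in 1 pair, being higher in rat batch 6 (median 9.76, range 9.46 to 9.98) than in rat batch 2 (9.63, 9.30 to 9.88) by 0.16 ± 0.06 (adjusted p = 0.0173, limma), although with 5 components this difference was -0.05. Per1 passed in no pair, and its batch means stayed between 11.24 and 11.35. Ranges overlapped in each of the 6 pairs of batches for each of the 7 members.

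Counted by pair of batches, 5 members passed between rat batches 3 and 4, where 39.8% of all genes did, 2 between 3 and 6 (43.1% of genes), 1 between 2 and 3 (3.44%) and 1 between 2 and 6 (34.8%). None passed between 2 and 4 (26.9% of genes, with 0 members at an unadjusted p under 0.05) or between 4 and 6 (3.87%, with 1 member, Per2, at an unadjusted p under 0.05). The median absolute difference between rat batches 3 and 4 over all genes was 0.16. With the first 5 expression components as covariates 3 members passed the F test, Clock, Per2 and Nr1d2 (16.1% of genes), and the differences of rat batches 4 and 6 from rat batch 3 turned sign for Clock and Dbp, as did that of rat batch 4 for Nr1d2. No member passed with the first 20 components (0 of 7, with 2 at an unadjusted p under 0.05), where 0.0698% of all genes did. With the column run as a covariate no member passed (0 of 7, with 1 at an unadjusted p under 0.05), where 0.984% of genes did. Without rat batch 3 none passed either (0 of 7, with 1 at an unadjusted p under 0.05), where 33.3% of genes did, the lowest adjusted p being that of Arntl (0.0714).

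**Figure D1:**
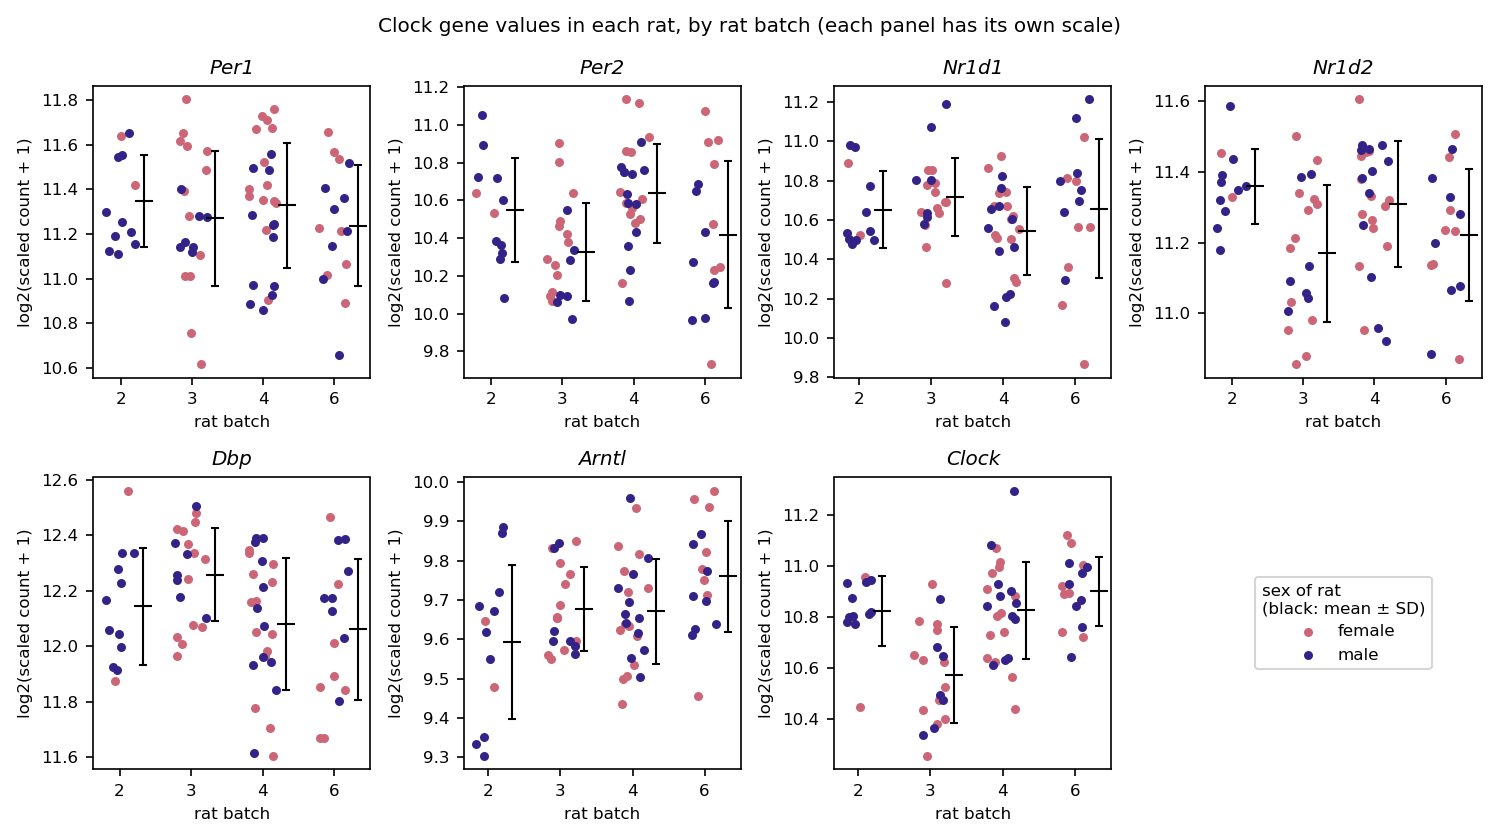
Value of each clock gene in each of the 74 rats, as log2(scaled count + 1) on the vertical axis, by rat batch on the horizontal axis and colored by sex; black bars give the mean ± SD of a batch, and each panel has its own scale. Clock sits lowest and Dbp highest in rat batch 3, and within every panel the batches overlap.

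Between the sexes no member passed (0 of 7, against 0.0873% of all genes), while Per1 and Per2 had unadjusted p-values under 0.05, both with limma and with voom on recovered counts. Per1 had a median of 11.21 in 37 males (10.66 to 11.65) and 11.40 in 37 females (10.62 to 11.80), with a male minus female difference of -0.17 ± 0.06 (adjusted p = 0.535, limma). Per2 had a median of 10.38 in males (9.97 to 11.05) and 10.53 in females (9.73 to 11.14), with a difference of -0.17 ± 0.07 (adjusted p = 0.629, limma). For the other 5 members the difference lay between -0.02 and 0.07. With 5 expression components as covariates Per2 passed (-0.22, adjusted p = 0.0466, limma), where 6.27% of genes did.

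Relations between members were then read between rats of the same rat batch and sex. Each of the 21 pairs was fitted with limma from either side, with one member as a predictor of all other genes, and a pair was called when its adjusted p passed in both fits. Pearson r and Spearman rho of the residuals are given beside it, with two-sided permutation p-values over 100000 permutations within rat batch and sex. In these fits 5 pairs passed: 3 ran together and 2 ran opposite. At an unadjusted p under 0.05 in both fits there were 10 pairs. The share of all genes at that level was not computed, and it is at least as large as the shares of called genes given next. The number of 10 is therefore not read as a result about the members. Over all genes, 19.2% were related positively and 17.9% negatively to Clock, 14% and 12.8% to Nr1d2, and 11.7% and 10.2% to Dbp. A call with any of these members was thus not rare. The shares were 5.47% and 4.77% for Per2, 2.23% and 2.95% for Arntl, 1.31% and 0.931% for Per1, and 0.256% and 0.378% for Nr1d1. Each share is of 1 fit, while a pair had to pass in both.

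The relation with the highest r was that of Nr1d1 and Dbp, both E-box targets of the positive limb (r = 0.65, permutation p = 1e-05, the smallest the permutations can give; rho = 0.69, permutation p = 1e-05; adjusted p 2.99e-06 and 4.16e-07). In 58 of 74 rats the values of Nr1d1 and Dbp lay on the same side of the rat batch and sex mean. Without the 2 rats farthest from the median of Nr1d1, r was 0.66. Among 12987 other genes whose log2 values averaged 5 or more, Dbp stood in place 2 from the highest r for Nr1d1, and Nr1d1 in place 13 for Dbp. Few genes were related to Nr1d1 at all: 0.256% of genes positively and 0.378% negatively, against 11.7% and 10.2% for Dbp. Within rat batches 2, 3, 4 and 6 the r of Nr1d1 and Dbp was 0.81, 0.44, 0.71 and 0.67.

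Per1 and Per2, paralogs whose proteins act in the same repressor complex, also rose and fell together (r = 0.47, permutation p = 5e-05; rho = 0.46, permutation p = 0.00014; adjusted p 0.00455 and 0.00178). The pair lay on the same side of the mean in 47 of 74 rats, and r was 0.44 without the 2 farthest rats. Per2 stood in place 68 of 12987 genes for Per1, while 1.31% of genes were related positively and 0.931% negatively to Per1, and 5.47% and 4.77% to Per2. The relation was present in rat batches 3 (0.62), 4 (0.46) and 6 (0.59), but r was -0.05 in the 12 rats of rat batch 2 (-0.25 to 0.10 with any 1 rat left out, not tested). It was not called without rat batch 3, 4 or 6, or with 20 expression components (r = 0.35, adjusted p = 0.439 in the weaker of the 2 fits).

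The called partner of Nr1d2 was Clock, a member of the opposite limb, and the relation was positive (r = 0.56, permutation p = 2e-05; rho = 0.60, permutation p = 1e-05; adjusted p 1.37e-05 and 3.63e-06), with 55 of 74 rats on the same side and an r of 0.55 without the 2 farthest rats. In rat batches 2, 3, 4 and 6 the r was 0.43, 0.74, 0.61 and 0.22. The value of rat batch 6 ran from 0.13 to 0.31 with any 1 rat left out, which was not tested. Nr1d2 and Clock were both related to large parts of the transcriptome, however: 14% of genes positively and 12.8% negatively for Nr1d2, and 19.2% and 17.9% for Clock, so that this relation is one of many. Clock stood in place 274 for Nr1d2, and Nr1d2 in place 648 for Clock. With its paralog Nr1d1, Nr1d2 had an r of 0.31 (permutation p = 0.0067; rho = 0.21, permutation p = 0.0763), positive in each of the 4 rat batches (0.09 to 0.56, the lowest in rat batch 4, where rho was -0.06), and passed in 1 of the 2 fits (adjusted p 0.0297 and 0.197). With Dbp its r was 0.01.

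The 2 pairs that ran opposite both joined Dbp with the positive limb. For Dbp and Clock r was -0.51 (permutation p = 3e-05; rho = -0.43, permutation p = 0.00032; adjusted p 0.000238 and 4.17e-05), with 48 of 74 rats on opposite sides, and the r within rat batches 2, 3, 4 and 6 was -0.66, -0.45, -0.54 and -0.47. Among 12987 genes, Clock stood in place 107 from the lowest r for Dbp, and Dbp in place 1040 for Clock. Since 10.2% of genes were related negatively to Dbp and 17.9% to Clock, this relation too is one of many. The value of rat batch 2 rested on female 11 (residuals of 0.47 for Dbp and -0.36 for Clock), without which r was -0.20, and the rho of this batch was -0.36. In rat batch 3 the libraries of column run 2 were low in Clock and high in Dbp, and r was 0.12 within the 12 libraries of run 2 and -0.04 within the 7 of run 1. In rat batches 4 and 6 r stayed between -0.62 and -0.37 with any 1 rat left out, and with the column run as a covariate over all 74 rats it was -0.46 (adjusted p = 0.00155 in the weaker fit). Within runs 1 and 2 of rat batch 3, in that order, the r of the pairs that ran together was 0.75 and 0.29 for Nr1d1 with Dbp, 0.82 and 0.51 for Per1 with Per2, and 0.85 and 0.60 for Nr1d2 with Clock. These values by run and without 1 rat were computed after seeing the data and were not tested. Without the 2 rats farthest from the median of Dbp, r was -0.42. For Dbp and Arntl r was -0.36 (permutation p = 0.00264; rho = -0.32, permutation p = 0.00848; adjusted p 0.0168 and 0.0438), with 46 of 74 rats on opposite sides and an r of -0.29 without the 2 farthest rats. Its r was -0.74 and -0.36 in rat batches 6 and 4, but -0.20 and -0.05 in rat batches 2 and 3 (-0.50 in run 1 and 0.11 in run 2 of rat batch 3), and 2.23% of genes were related positively and 2.95% negatively to Arntl. Dbp stood in place 395 from the lowest r for Arntl, and Arntl in place 1048 for Dbp. With any 1 rat left out, r ran from -0.43 to -0.20 in rat batch 4, the latter without male 14. It ran from -0.32 to -0.08 in rat batch 2 and from -0.15 to 0.10 in rat batch 3. In rat batch 6 it stayed between -0.78 and -0.64. These ranges were not tested. Male 14 of rat batch 4 had the lowest residual of Dbp (-0.50) and the highest of both Arntl (0.30) and Clock (0.46). Without this rat the relation of Dbp and Clock remained (r = -0.45, adjusted p = 0.0019), while that of Dbp and Arntl was not called (r = -0.31, adjusted p = 0.114). It was not called either without the 2 libraries of lowest total count (r = -0.36, adjusted p = 0.0704). Their omission changed no other call among the pairs, between the rat batches or between the sexes.

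**Figure D2:**
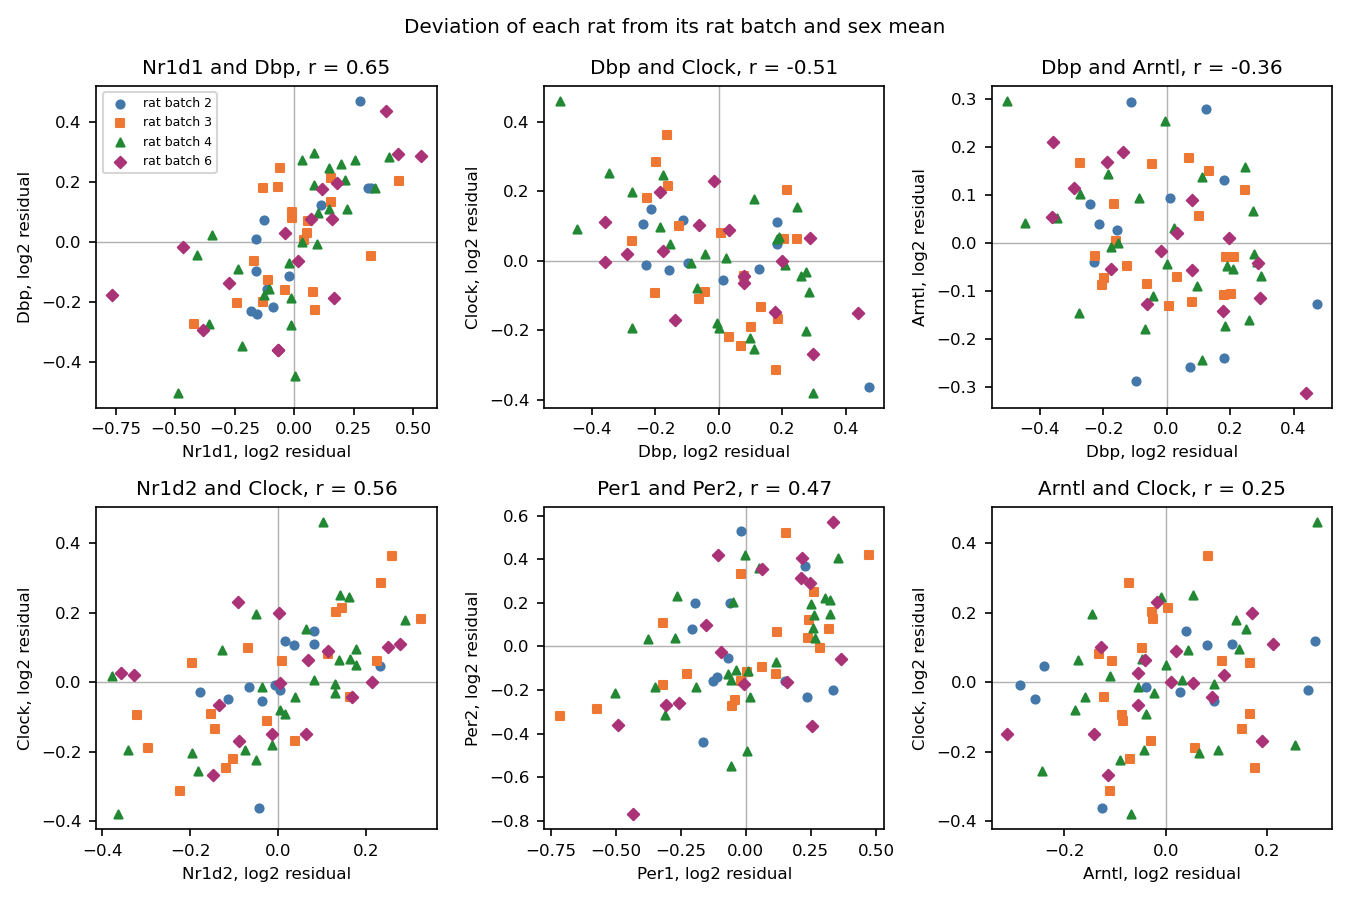
Residuals (log2 units, rat batch and sex removed) of 6 pairs of clock genes in 74 rats, with one symbol per rat batch and the Pearson r above each panel. The cloud of Nr1d1 and Dbp rises (r = 0.65), those of Dbp with Clock (r = -0.51) and Arntl (r = -0.36) fall, and that of Arntl and Clock is nearly round (r = 0.25).

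Beyond these pairs the limbs did not run opposite as a whole. Of the 10 pairs that cross the limbs, 6 had a negative r, 2 of them called, and 4 a positive r, 1 of them called. Arntl was not called against the repressors that act on it or that it drives. Its r was -0.21 with Nr1d1 (permutation p = 0.0916; rho = -0.19, p = 0.129) and -0.13 with Per1 (permutation p = 0.276; rho = -0.15, p = 0.219). With Nr1d2 its r was 0.03 (permutation p = 0.79; rho = 0.04, p = 0.733), and with Per2 it was 0.18 (permutation p = 0.159; rho = 0.17, p = 0.176). Arntl and Clock, whose proteins form a dimer, had an r of 0.25 (permutation p = 0.0224; rho = 0.24, permutation p = 0.0417; r = 0.17 without the 2 farthest rats), which did not pass in the fits across all genes (adjusted p 0.189 and 0.0848). Clock and Per2 (r = 0.27, permutation p = 0.0147; rho = 0.28, permutation p = 0.0178) passed in 1 of 2 fits (adjusted p 0.0499 and 0.115). Clock and Nr1d1 had an r of -0.23 (permutation p = 0.0574; rho = -0.19, permutation p = 0.104; r = -0.26 without the 2 farthest rats), negative in 3 of 4 rat batches, and did not pass (adjusted p 0.392 and 0.11). In rat batch 2, 1 of these 3, r was -0.22 but rho was 0.21. Female 11 of that batch had residuals of 0.28 for Nr1d1 and -0.36 for Clock. Clock and Per1 had an r of -0.03 (permutation p = 0.823). Among the 11 pairs within a limb, 8 had a positive r and the median r was 0.24, against -0.08 for the pairs across limbs.

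When the standardized residuals were averaged per rat, the score of Per1, Per2, Nr1d1, Nr1d2 and Dbp and the score of Arntl and Clock had an r of -0.09, and they lay on opposite sides of 0 in 39 of 74 rats. With Arntl alone as the positive limb, r was -0.16 and the scores were opposite in 46 rats. Within rat batches 2, 3, 4 and 6 the r of the limb scores was 0.17, 0.14, -0.14 and -0.47, and with Arntl alone it was 0.24, -0.28, -0.21 and -0.39. These scores are a description, without a test.

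**Figure D3:**
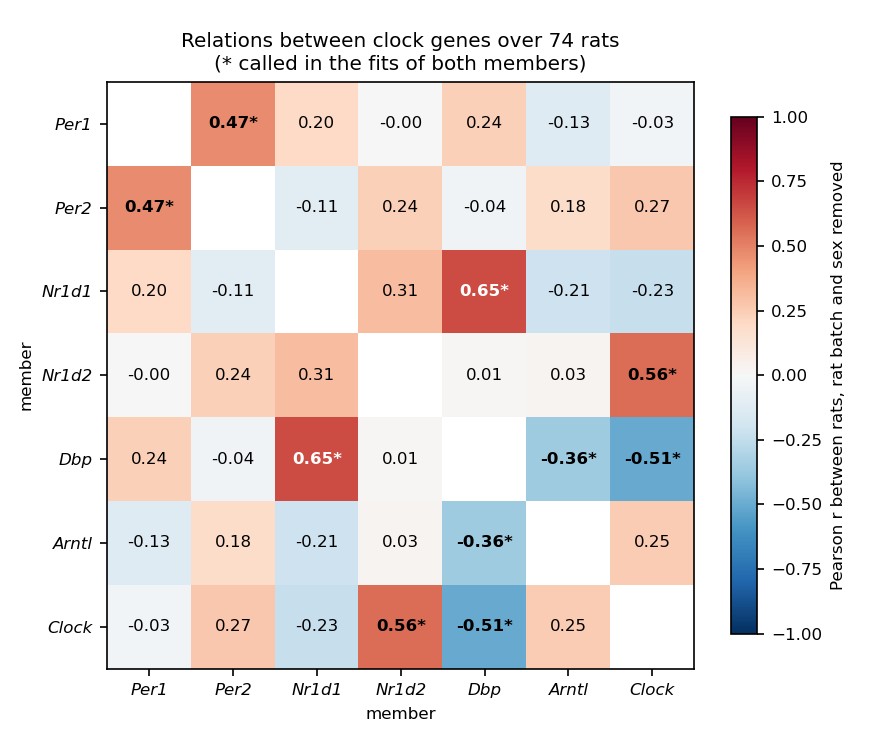
Pearson r of residuals between rats for each pair of the 7 clock genes, over 74 rats with rat batch and sex removed; red is positive, blue negative, and stars mark pairs that passed in the fits of both members. Positive squares join Nr1d1 with Dbp (0.65), Nr1d2 with Clock (0.56) and Per1 with Per2 (0.47), and negative squares join Dbp with Clock (-0.51) and Arntl (-0.36).

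The r of several pairs differed in sign between rat batches, but no such difference passed the test in both fits. Per1 and Nr1d2 had an r of 0.78 in rat batch 2 and -0.72 in rat batch 6, with 0.19 and 0.16 in rat batches 3 and 4, so that the r over all rats was near 0. Per1 and Nr1d1 ran together in rat batches 2 (0.34), 3 (0.45) and 4 (0.62) and opposite in rat batch 6 (-0.43). Per2 and Nr1d1 had an r of 0.37, 0.13 and 0.20 in rat batches 2, 3 and 4 and of -0.62 in rat batch 6. In rat batch 6, female 12 had the highest residual of Per2 (0.57) and the lowest of Nr1d1 (-0.77) of all 74 rats. Whether a relation differed by rat batch was tested with an interaction of member and batch in limma, and no pair passed in both fits (0 of 21) or in either (0 of 21). Per1 and Nr1d1 passed in 1 of the 2 fits with a filter at a mean log2 value of 3 (adjusted p 0.049 and 0.334), with 5 components (0.0279 and 0.383) and without rat batch 2 (0.0495 and 0.225), and Per2 and Nr1d1 without the 5 libraries of lowest median correlation (0.0435 and 0.391). The lowest adjusted p values were 0.0544 for Per1 and Nr1d1, 0.0753 for Per1 and Nr1d2 and 0.13 for Per2 and Nr1d1, and 3 pairs had an unadjusted p under 0.05 in both fits. In the same test the share of all genes whose relation differed by batch was 0.0116% for Per1, 0.0349% for Per2, 0.827% for Nr1d2, 0.00582% for Dbp and 0.326% for Clock. It was 0% for Nr1d1 and for Arntl. At an unadjusted p under 0.05, 2346 of 17179 genes differed in their relation to Per1, 1954 to Per2, 1372 to Nr1d1 and 2808 to Nr1d2. For Dbp, Arntl and Clock the counts were 1224, 1956 and 2611. Each count is of 1 fit, while the 3 of 21 pairs were under 0.05 in both, so that number is not read as a result. Without rat batch 6, Per1 and Nr1d1 were called over the remaining rats (r = 0.50, adjusted p = 0.0264), as were Per2 and Nr1d2 (r = 0.40, adjusted p = 0.0221) and Per2 and Clock (r = 0.35, adjusted p = 0.0498).

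**Figure D4:**
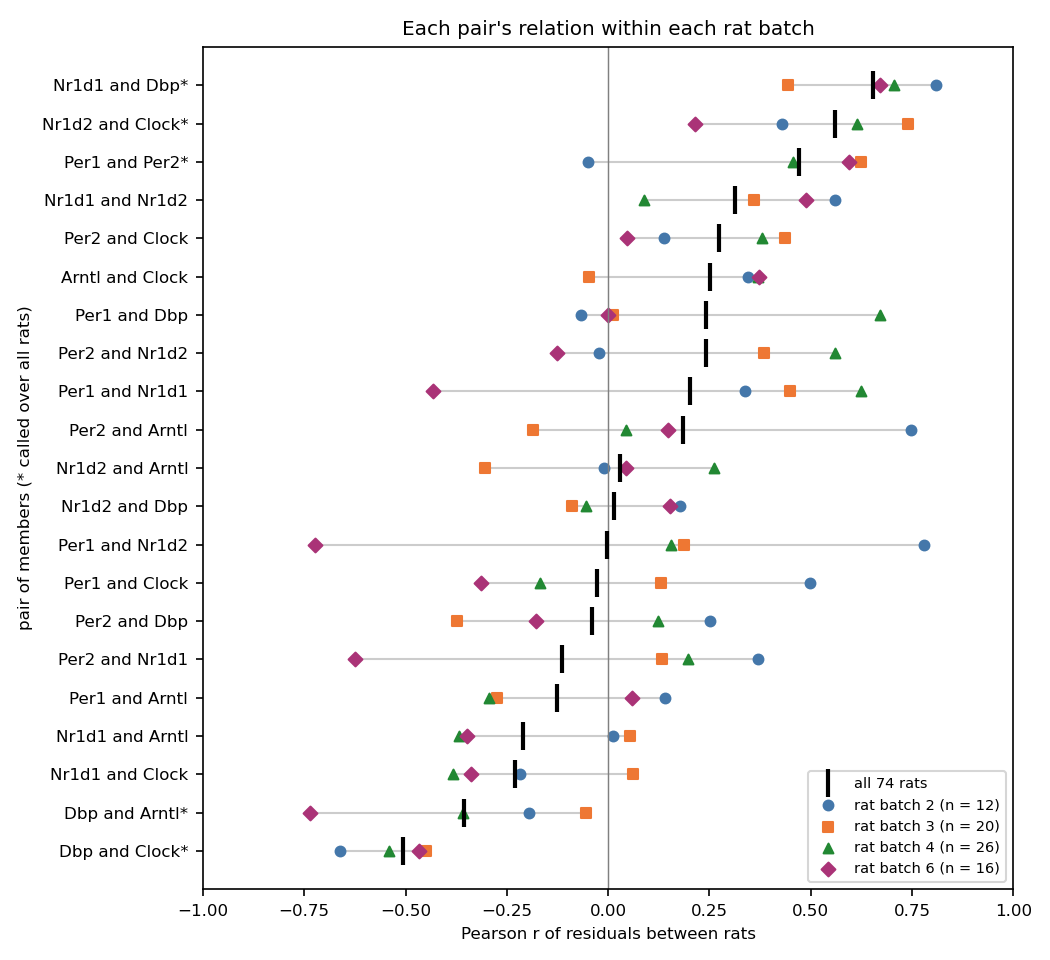
Pearson r of residuals for each of the 21 pairs of clock genes, over all 74 rats (black bar) and within each rat batch (colored symbols); the horizontal axis runs from -1 to 1, and stars mark the 5 called pairs. Nr1d1 with Dbp stays between 0.44 and 0.81 and Dbp with Clock between -0.66 and -0.45 (-0.20 in rat batch 2 without female 11, and -0.04 and 0.12 within column runs 1 and 2 of rat batch 3), whereas Per1 with Nr1d2 spreads from -0.72 to 0.78.

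The members were also set against the main patterns of the whole transcriptome. The first expression component held 11.2% of the variance over libraries, and, with rat batch and sex removed, its r was -0.56 with Clock, -0.53 with Nr1d2, -0.41 with Per2, 0.31 with Dbp and -0.27 with Arntl, but -0.01 with Per1 and -0.02 with Nr1d1. With the third component r was 0.40 for Clock, -0.31 for Arntl and -0.27 for Dbp, and between -0.15 and 0.16 for the other members. The recovered total count had an r between -0.09 and 0.21 with the 7 members, and a library's median correlation with the others had an r of 0.26 with Clock (rho = 0.35), of 0.19 with Per1 (rho = 0.32) and of at most 0.17 with the rest (rho at most 0.23). These r values describe 35 relations and were not tested as results. What the components stand for was not tested.

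With expression components as covariates, the set of pairs that ran together changed in part. Per1 with Per2 was still called with 5 components, but not with 20. The study's mapping also used expression components, but on transformed values and with the similarity of each rat to the founder strains as further covariates, which were not used here. Nr1d1 and Dbp kept their relation with 5 components (r = 0.69, adjusted p = 4.44e-07 in the weaker fit) and with 20 (r = 0.72, adjusted p = 4.98e-06). Nr1d1 and Nr1d2 rose from 0.31 to 0.48 with 5 components (adjusted p = 0.00671) and 0.74 with 20 (adjusted p = 4.44e-06). Nr1d2 and Dbp went from 0.01 to 0.40 (adjusted p = 0.0222) and 0.69 (adjusted p = 2.19e-05). Both REV-ERB genes and Dbp were thus called with each other after 20 components, in fits where 0.693% of all genes were related positively to Nr1d1, 0.501% to Nr1d2 and 1.27% to Dbp (1.22%, 3.34% and 4.52% with 5 components). Over the same steps Nr1d2 and Clock fell from 0.56 to 0.30 and 0.12, and Dbp and Clock went from -0.51 to -0.30 and -0.09; neither pair was called with 5 components (adjusted p 0.124 and 0.114) or with 20 (0.823 and 0.887). Dbp and Arntl had an r of -0.44 with 5 components and -0.41 with 20, without passing (adjusted p 0.149 and 0.347).

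**Figure D5:**
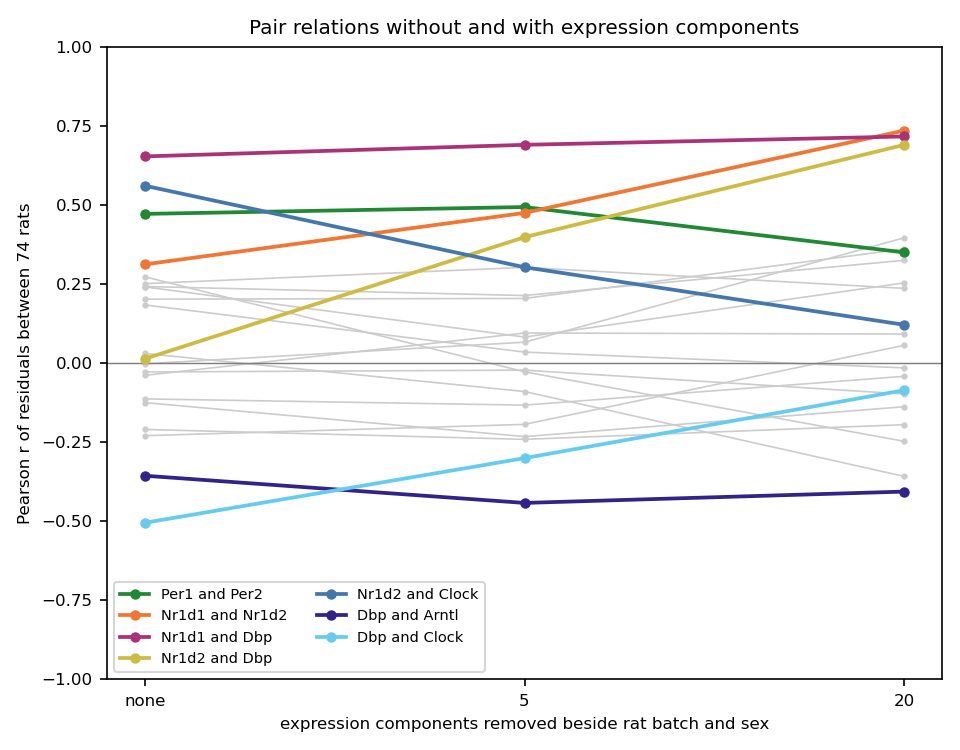
Pearson r of residuals for the 21 pairs of clock genes over 74 rats with rat batch and sex removed and with none, 5 or 20 expression components removed as well; 7 pairs are colored and the other pairs are gray. Nr1d1 with Nr1d2 and Nr1d2 with Dbp climb to 0.74 and 0.69, near Nr1d1 with Dbp (0.72), while both pairs of Clock approach 0.

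The genes nearest to a member over the 74 rats were mostly not other members. Among the 3 genes of largest absolute r for each member, a clock gene of the set appeared once, Dbp for Nr1d1. Just above it stood ENSRNOG00000042717 (r = 0.70). Clock had the closest neighbours, ENSRNOG00000006632 with an r of 0.85 and ENSRNOG00000024603 with -0.84, and the gene nearest to Arntl was ENSRNOG00000020776 with an r of -0.67. The median absolute r over all genes was 0.11 for Nr1d1, 0.13 for Per1, 0.14 for Arntl, 0.15 for Per2, 0.19 for Dbp, 0.21 for Nr1d2 and 0.26 for Clock. The table names genes by identifier, and symbols of genes outside the set were not matched here.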

How the data were processed

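Values of the nucleus accumbens core were read from the table that the authors deposited. According to the submitters' processing notes and the study's methods, the authors trimmed single-end reads with cutadapt, used RSEM to estimate gene counts from the Ensembl rat transcripts (Rnor_6.0), scaled them by the upper quartile with DESeq2, filtered genes and deposited log2 values, log2(scaled count + 1). No version is given in the sources used here. No column was left unmapped (0 columns), and no libraries held identical values (0 pairs). The labels do not say more of replicates than that each is 1 rat. Rats are numbered within a rat batch in the order of the sample records.

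Scaled counts were whole to within 0.0004%, and each library's scaling factor was recovered from the pattern of its rounded values (factors 0.708 to 2.183, searched from 0.55 to 2.5). On simulated libraries 75 of 75 factors were returned to within 1%. Recovered counts served to state depth, in the voom fit and as a covariate. Reads without molecular identifiers are not independent molecules, so counting error is a lower limit.

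Tests used limma 3.58.1 in R 4.3.3 (lmFit, eBayes with trend) on all 17180 genes with rat batch and sex as covariates, Benjamini-Hochberg adjustment over all genes and a threshold of 0.05. For relations, a member's value was added as a covariate. On simulated data 50 of 100 relations with an r of 0.4 and 99 of 100 with an r of 0.6 were called, as were 58 of 100 batch shifts of 0.25 and 90 of 100 of 0.5. Permutations, correlations and figures were made in Python (3.11.15) with the packages scipy (1.17.1), numpy (2.4.6), matplotlib (3.10.9) and pandas (2.3.3). Alternatives were pseudocounts of 8 and 0.1, a filter at a mean log2 value of 3, quantile normalization, a rank-based inverse normal transformation, eBayes without trend, no sex covariate, 5 or 20 expression components (of the centred log2 values), depth or column run as covariates, voom, rank correlation, and omission of rat batches or libraries.

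The genes named are the 7 members, the genes that overlap them in the reference and some of the 3 genes of largest absolute r with a member. The members were chosen by identifier and not by their values, but they and all lists were chosen with earlier results of these data known. Lists of other clock genes, immediate early genes, glucocorticoid response genes and cell type markers were not run, since their symbols could not be paired with identifiers here, so the labelled tissue was not checked against markers.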

Additional observations from a re-analysis of the deposited data

How the results depend on the processing

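Under 19 alternatives, Nr1d1 with Dbp was called each time (r from 0.63 to 0.72), Nr1d2 with Clock and Dbp with Clock in 17, all but the fits with 5 and 20 expression components, Per1 with Per2 in 15, and Dbp with Arntl in 8. By rat batch, Clock passed in 16 of 19, Per2 and Nr1d2 in 15 each and Dbp in 11. Of 17 alternatives for the differences between 2 rat batches, the call of rat batch 4 against 3 was made in 14 for Clock, Per2 and Nr1d2 (for Nr1d2, 1 of these with the opposite sign), 12 for Dbp and 9 for Nr1d1. That of 6 against 3 was made in 15 for Clock (1 with the opposite sign) and 11 for Dbp, that of 3 against 2 in 11 for Clock, and that of 6 against 2 in 13 for Arntl. The number of members called between rat batches went from 4 to 0 with 20 components, with the column run as a covariate and without rat batch 3, where the share of all genes called went from 53.5% to 0.0698%, 0.984% and 33.3%. The pairs called positive went from 3 to 5 without rat batch 6. The pairs called negative went from 2 to 0 with 5 or 20 components and to 1 with the rank-based transformation, without the eBayes trend, with rank correlation, without rat batch 2, 4 or 6, without the 2 libraries of lowest total count, and in 2 alternatives chosen after seeing the data, without the 5 libraries of lowest median correlation and without male 14 of rat batch 4. With 5 components 1 member, Per2, passed between the sexes, as did 6.27% of all genes. The r of the limb scores was -0.16 with Arntl alone. Signs turned in these cases. With 5 components Arntl in rat batch 6 minus 2 was -0.049, Clock was -0.12 in rat batch 4 and -0.20 in rat batch 6 minus 3, Dbp was 0.14 and 0.21 in the same order, Nr1d2 in rat batch 4 minus 3 was -0.26 (of these, Clock in rat batch 6 and Nr1d2 passed the test, with adjusted p values of 0.0324 and 0.0432), and Per2 with Clock had an r of -0.028. With 20 components, in rat batch 4 minus 3, Clock was -0.036, Dbp 0.036, Nr1d2 -0.12 and Per2 -0.10, Per1 in males minus females was 0.25, and Per2 with Clock had an r of -0.25. With the column run as a covariate, Dbp was 0.047 in rat batch 4 and 0.025 in rat batch 6 minus 3, and in rat batch 4 minus 3 Nr1d2 was -0.19 and Per2 -0.20. The r of Per1 with Nr1d1 was -0.021 without rat batch 4, and that of Nr1d2 with Dbp was -0.011 after the rank-based transformation, -0.0034 without rat batch 2 and -0.034 without rat batch 6. The cause was not tested. Components were computed with rat batch left in, and rat batch and column run are separated in these fits by the libraries of rat batch 3 alone, of which 1 shares a run with rat batches 4 and 6. No paired analysis was possible because numbers were given to rats in record order and only name them.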
